A study of Mus musculus with 15 samples.

Results

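The comparison described here is between mouse retinas that kept 1 working copy of Neurog2 and retinas in which both copies were open to deletion, with Cre present in both groups. It covers 10 of the 15 RNA samples, 5 called HET and 5 called MUT, and all came from CD-1 mice at postnatal day 2. HET animals were Chx10Cre;Neurog2CKO/+, with 1 floxed and 1 wild-type allele. MUT animals were Chx10Cre;Neurog2CKO/CKO, with 2 floxed alleles. The other 5 samples, called WT, were Neurog2CKO/CKO, for which the label names no Cre, so WT and MUT carried the same number of floxed alleles and HET carried 1 fewer. The labels give neither the sex of the animals, nor how many animals made a sample, nor which stretch of the gene Cre removes. The sample titles carry codes whose first numbers, 7, 21 and 23, recur in all groups, with 2, 1 and 2 samples in HET and 1, 1 and 3 in MUT; the labels do not say what they mark.

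The deposited table holds 1 pooled FPKM value (fragments per kilobase of transcript, scaled to the sequenced fragments of the library) for each transcript and group, so values of single samples were not analysed here, no SD can be given and the sequencing depth is unknown. FPKM was summed over the transcripts of each gene symbol, and 13627 of 15798 genes with at least 1 FPKM in either group were kept. Of these, 131 passed through MUT alone and 178 through HET alone, which fixed their direction. The threshold fell between Murc, kept at 0.942 FPKM in HET and 1.00 in MUT, and Pcdhb2, left out at 0.874 and 0.998. Each ratio below is log2 of MUT over HET after adding 0.1 FPKM to both, so that a negative ratio means less RNA in MUT; the added 0.1 makes ratios of low genes smaller. The p-values are the authors' own, from Cuffdiff, for single transcripts and not adjusted for the number tested.

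Neurog2 is a proneural transcription factor of the basic helix-loop-helix (bHLH) family. Such factors pair with E proteins, bind the E-box sequence CANNTG and switch on further transcription factors of neuronal differentiation, among them the Neurod and Nhlh genes, while Hes proteins downstream of Notch hold them back. In the retina, Neurog2 is made by dividing progenitors and is turned down as they become neurons. Around birth in the mouse, the neurons forming are chiefly rods, late amacrine cells and the first bipolar cells. The promoters of 3 bHLH genes that had less RNA in MUT, described below, are shown because they hold E-boxes within 250 bases of the start. The sequences are from RefSeq on GRCm38.p6, the assembly also called mm10, and run 5′ to 3′ on the gene's strand with each CANNTG in capitals. Neurod2 is read from chr11:98329646-98329895 on the minus strand, Nhlh1 from chr1:172057597-172057846 on the minus strand, and Nhlh2 from chr3:102009895-102010144 on the plus strand.
Neurod2: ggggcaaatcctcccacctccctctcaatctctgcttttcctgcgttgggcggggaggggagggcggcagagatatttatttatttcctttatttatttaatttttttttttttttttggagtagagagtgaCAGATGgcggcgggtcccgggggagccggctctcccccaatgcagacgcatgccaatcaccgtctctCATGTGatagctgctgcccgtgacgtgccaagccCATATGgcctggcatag
Nhlh1: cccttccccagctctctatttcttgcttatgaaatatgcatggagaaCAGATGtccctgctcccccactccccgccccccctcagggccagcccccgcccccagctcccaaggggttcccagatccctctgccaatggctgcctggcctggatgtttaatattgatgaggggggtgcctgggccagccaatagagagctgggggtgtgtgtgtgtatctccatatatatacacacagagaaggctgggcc
Nhlh2: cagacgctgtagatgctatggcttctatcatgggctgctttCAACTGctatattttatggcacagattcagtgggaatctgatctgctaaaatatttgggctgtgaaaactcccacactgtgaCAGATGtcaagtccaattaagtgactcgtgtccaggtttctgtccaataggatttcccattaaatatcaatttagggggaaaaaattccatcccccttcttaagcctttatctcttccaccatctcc

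The Neurod2 window held 3 E-boxes: farthest from the start was CAGATG, the middle one was CATGTG, and the nearest one was CATATG. The Nhlh1 window held 1, CAGATG, and the Nhlh2 window held CAACTG and CAGATG. All 3 thus held CAGATG, read on either strand. Olig2 and Ptf1a, a further pair of bHLH genes with less RNA in MUT, held no CANNTG in the same window. E-boxes are common: of 27025 mouse genes, 69.3% held CANNTG, 16.3% held CAGATG and 3.98% held CATATG in the 250 bases before a start. A gene with several starts counted if any of its windows matched. The sequences above are 1 window a gene, so these shares are not of single windows. A match describes letters only, and binding was not measured. Only 112 of the 177 genes with a transcript lower in MUT and 79 of the 123 with a higher one matched the promoter table, under 80% of each, so a comparison of motif shares between gene sets is void.

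Neurog2 itself, on chromosome 3 at 127633135 to 127635631, measured 42.5 FPKM in HET and 10.5 in MUT, a ratio of -2.0. MUT thus kept 24.8% of the HET level. In the authors' deposited table its transcript has a log2 fold change of -2.01 with an implied error of 0.25, obtained by dividing the fold change by its test statistic, and p = 5e-05, the smallest value that table holds. In the tables that hold WT, which were normalized separately, WT stood at 59.2 and 59.5 FPKM beside 42.4 in HET and 10.6 in MUT. In whole tissue, fewer cells that make an RNA and less RNA per cell cannot be told apart, here and for every gene below.

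Most genes differed little between the groups. The median ratio of the genes kept was 0.0043, and 71.4% lay within 0.1 of 0. No transcript of 43959 had a q-value under 0.05 (0%), Cuffdiff's p after adjustment for all transcripts, and the smallest q was 0.0762, that of Neurog2 among others. The p-values have a floor, and 27 of the transcripts sit at it, at 5e-05, 5 higher and 22 lower in MUT. At unadjusted p under 0.05, the authors' deposited table has 358 transcripts (0.814%), of which 151 were higher in MUT (0.344%) and 207 lower (0.471%). A normal approximation to the deposited test statistics, adjusted by Benjamini-Hochberg, passes 26. These are not the same transcripts as the 27 at the floor. Hes2, for example, sits at the floor, but its test statistic of -2.54 does not pass. By gene, 123 of those kept had a transcript higher in MUT at p under 0.05 (0.903%) and 177 a lower one (1.3%), with 5 genes in both counts. Of the lower genes 27 were kept through HET alone, and of the higher genes 8 through MUT alone. Past 1.5-fold, 89 genes were higher (0.653%) and 175 lower (1.28%). Among 12128 protein-coding genes outside the histone and ribosomal protein lists, 106 had a transcript higher in MUT at p under 0.05 (0.874%) and 128 a lower one (1.06%), and 28 were past 1.5-fold higher (0.231%) and 31 lower (0.256%). Because none passes the adjusted test, the genes below are described by their levels and their unadjusted p.

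**Figure D1:**
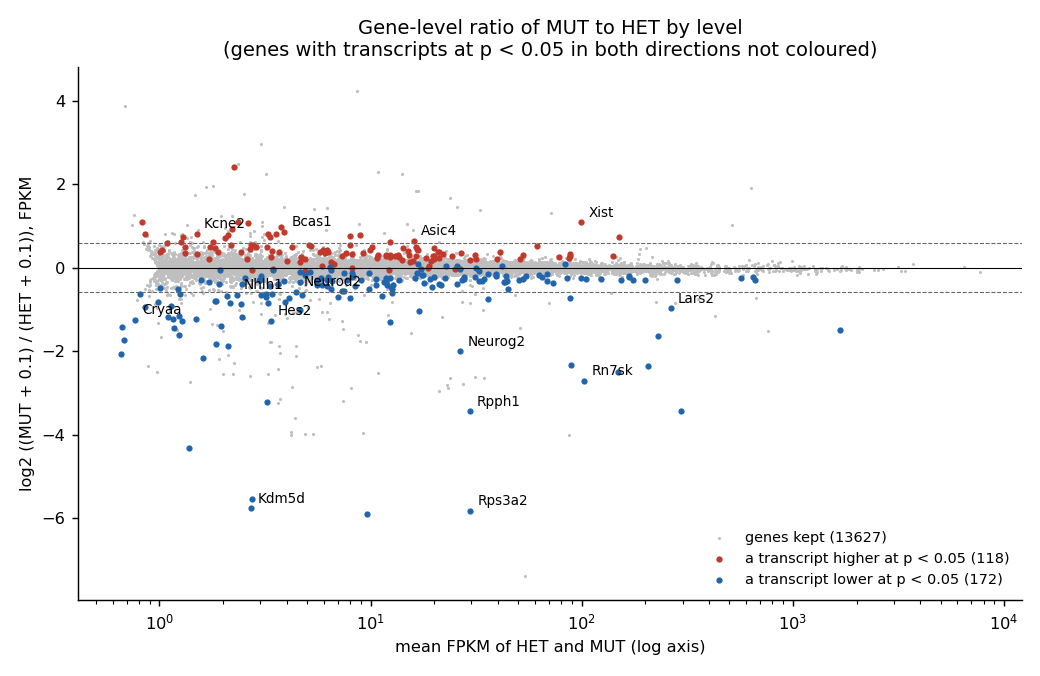
Each point is a gene kept, with its mean FPKM in HET and MUT on a log axis and its log2 ratio of MUT to HET; colours mark genes with a transcript at the authors' unadjusted p under 0.05 in 1 direction only, and dashed lines mark 1.5-fold. Most points lie near 0 at every level, and Neurog2 stands at -2.0.

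Retinal genes were present in both groups, with the photoreceptor factors Otx2 and Crx at 287 and 200 FPKM in HET, whereas lens and blood markers were sparse, summing to 8.98 and 19.6 FPKM in HET. The groups also differed in sex-linked RNA. Kdm5d, a histone demethylase of the Y chromosome, measured 5.41 FPKM in HET and 0.0012 in MUT, with p = 0.038 for 1 transcript in the authors' deposited table. The 1 other Y-linked gene kept had a ratio of 0.18. It held most of the Y-linked level, which summed over the 2 genes to 144 FPKM in HET and 158 in MUT. Xist, the RNA that silences an X chromosome in females, measured 63.3 in HET and 135 in MUT, with 98.3 in WT. Kdm6a and Eif2s3x, X-linked genes that escape this silencing, were also higher in MUT, at 11.9 against 16.5 and 79.3 against 97.0 FPKM. In the authors' deposited table the transcripts of Xist, Kdm6a and Eif2s3x have p = 0.0011, 0.0013 and 0.0038. Xist was thus higher in the same group that had less Neurog2 RNA, and Kdm5d was lower there, in the direction that the filter fixed. The part of sex in the differences below was not tested.

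Among proneural and neurogenic transcription factors, 6 of the 15 kept of 18 listed had a transcript lower in MUT at p under 0.05, none had a higher one, and 9 had neither. Over all genes kept, 1.3% had a lower one and 0.903% a higher one. The 6 were Neurog2 itself, Nhlh1, Neurod2, Olig2, Ptf1a and Nhlh2. As a whole the list differed little: 9 of the 15 lay below 0, and the median ratio was -0.061 beside 0.0043 for all genes kept, of which 47.9% lay below 0. The list was chosen with these results known and is not independent evidence of a direction.

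Neurod2 and the Nhlh genes encode bHLH factors of differentiating neurons. Neurod2 measured 5.33 FPKM in HET and 3.55 in MUT, with WT at 6.32. Nhlh1 measured 2.86 and 1.79, with WT at 3.10. Nhlh2, the most abundant of these, measured 29.2 and 22.3, with WT at 27.9. In all 3 genes HET lay nearer to WT than MUT did, and MUT was the lowest group. The authors' deposited table gives the Neurod2 transcript a log2 fold change of -0.59 with an implied error of 0.34 and p = 0.0001. For Nhlh1 the authors' deposited table gives -0.68 with an implied error of 0.43, p = 0.0008. The Nhlh2 transcript has -0.39 with an implied error of 0.23 in the authors' deposited table, p = 0.0002. Each difference exceeded its error by less than a factor of 2. Under a normal curve, errors of this size would give larger p-values than those deposited, and the reason was not examined.

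Olig2, a bHLH repressor made by retinal progenitors near their last division, measured 14.5 FPKM in HET and 10.5 in MUT, with WT at 13.1. Ptf1a, the bHLH factor required for amacrine and horizontal cells, measured 14.7 and 10.9, with WT at 12.7. Their transcripts have p = 0.00015 and 0.002 in the authors' deposited table. Both lay above WT in HET and below it in MUT. Atoh7, the bHLH factor required for ganglion cells, was looked up after its values were seen and measured 15.3 in HET and 9.91 in MUT, p = 0.00505 in the authors' deposited table, with WT at 16.

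Abundant neurogenic factors did not share this difference at p under 0.05. Hes6, which promotes neurogenesis against the other Hes proteins, measured 578 FPKM in HET and 654 in MUT. Neurod1 and Neurod4, bHLH factors of photoreceptors, amacrine and bipolar cells, measured 127 against 119 and 146 against 141. The ratios of these 3 ran from -0.086 for Neurod1 to 0.18 for Hes6.

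**Figure D2:**
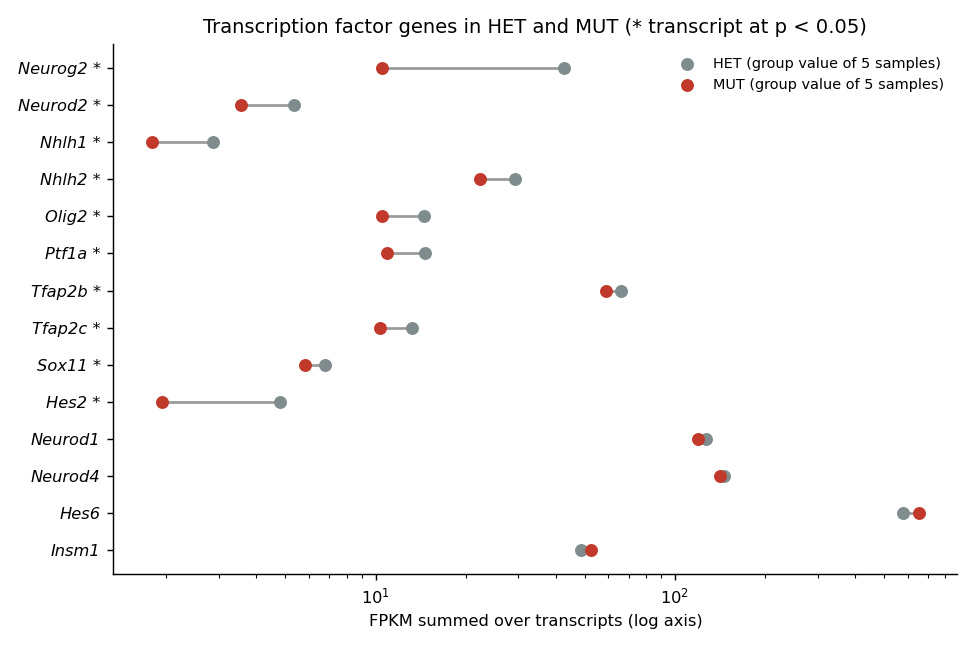
FPKM on a log axis of Neurog2 and other transcription factor genes in HET (grey) and MUT (red), 1 pooled value a group joined by a line, with a star where a transcript has an unadjusted p under 0.05. The line is longest for Neurog2, from 42.5 to 10.5, and Neurod1, Neurod4, Hes6 and Insm1 have short lines and no star.

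Of 12 Hes, Hey and Id repressors kept, 1 was lower and 1 higher at p under 0.05, beside 1.3% and 0.903% of all genes kept. Of the 12, 9 lay above 0 and 3 below, beside 47.9% below 0 among all genes kept, and the median was 0.040. Hes2, a sparse member of the family, measured 4.78 FPKM in HET and 1.93 in MUT, with WT at 4.04, a ratio of -1.26 and p = 5e-05 in the authors' deposited table. Outside the histone and ribosomal protein lists, it was the protein-coding gene with the lowest ratio after Kdm5d and Neurog2 among those with a transcript lower at p under 0.05. Id2, which blocks bHLH factors by pairing with them, was higher in MUT, at 79.8 and 94.3. Hes5, the main Notch effector of retinal progenitors, measured 203 and 218 without such a p.

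Amacrine transcription factors had 5 of 21 kept members lower in MUT at p under 0.05 and none higher, with a list median of -0.038. The shares over all genes kept were 1.3% lower and 0.903% higher. Tfap2b and Tfap2c, AP-2 factors downstream of Ptf1a in amacrine cells, measured 66.1 against 58.8 FPKM and 13.2 against 10.4, with WT at 63.8 and 12.1. In the authors' deposited table Tfap2c has p = 0.0049 and Tfap2b p = 0.049. Ptf1a, Neurod2 and Nhlh2 sit on this list too and make up the other 3, so it is not separate from the neurogenic list. Of 17 amacrine transmitter and neuropeptide genes, 1 was lower: Cartpt, which encodes the CART peptide, at 12.1 and 9.10.

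Rod genes lay lower in MUT as a group. Of 31 rod phototransduction and outer segment genes kept of 35 listed, 27 lay below 0, the median ratio was -0.11, 4 had a lower transcript at p under 0.05 and none a higher one. Over all genes kept, 47.9% lay below 0, 1.3% had a lower transcript at such a p and 0.903% a higher one. Sag, the rod arrestin that ends the light response, measured 179 FPKM in HET and 155 in MUT, with WT at 193. Its p in the authors' deposited table is 0.031. For Sag the order was WT, then HET, then MUT. Gngt1, the rod transducin gamma subunit, measured 37.9 and 31.3, with WT at 36.3, below HET. Nxnl1, the gene of rod-derived cone viability factor, measured 7.30 and 5.84.

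The photoreceptor fate factors showed no such count: none of 13 had a transcript at p under 0.05 in either direction, and their median was -0.024. Otx2, which commits progenitors to the photoreceptor and bipolar fates, measured 287 FPKM in HET and 285 in MUT. Crx, its target and partner, measured 200 and 204, and Nrl, which sets the rod fate, 134 and 124. Cone genes had a median of 0.092, which turned to -0.019 with the most abundant transcript of each gene alone. Of the 13 cone genes 1, Kcne2, was higher at p under 0.05, beside 0.903% of all genes kept.

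The list medians of the other early and late retinal cells lay near 0. Of 13 horizontal cell genes, 10 lay below 0, beside 47.9% of all genes kept, and the median was -0.058. Of these 13, Tfap2b and Slc4a5 had a lower transcript at p under 0.05, 2 genes, beside 1.3% of all genes kept. None of 23 ganglion cell genes and none of 14 bipolar genes had a transcript at p under 0.05 in either direction, with medians of 0.017 and 0.042. Of 27 progenitor transcription factors none had such a transcript, 18 lay above 0, and the median was 0.046. Müller glia and late progenitor genes leaned the same way, with 22 of 29 above 0 and a median of 0.058, but the 1 member at p under 0.05 was lower: Crabp1, a retinoic acid binding protein, at 179 FPKM in HET and 157 in MUT. Cell cycle genes were close to level, with medians of 0.011 over 46 replication genes and 0.0061 over 47 mitosis genes and no transcript at p under 0.05 in either list. Ccnd2, the gene of cyclin D2, was higher in MUT at 5.30 and 7.12, whereas Ccnd1, the main D cyclin of the retina, measured 990 and 979.

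**Figure D3:**
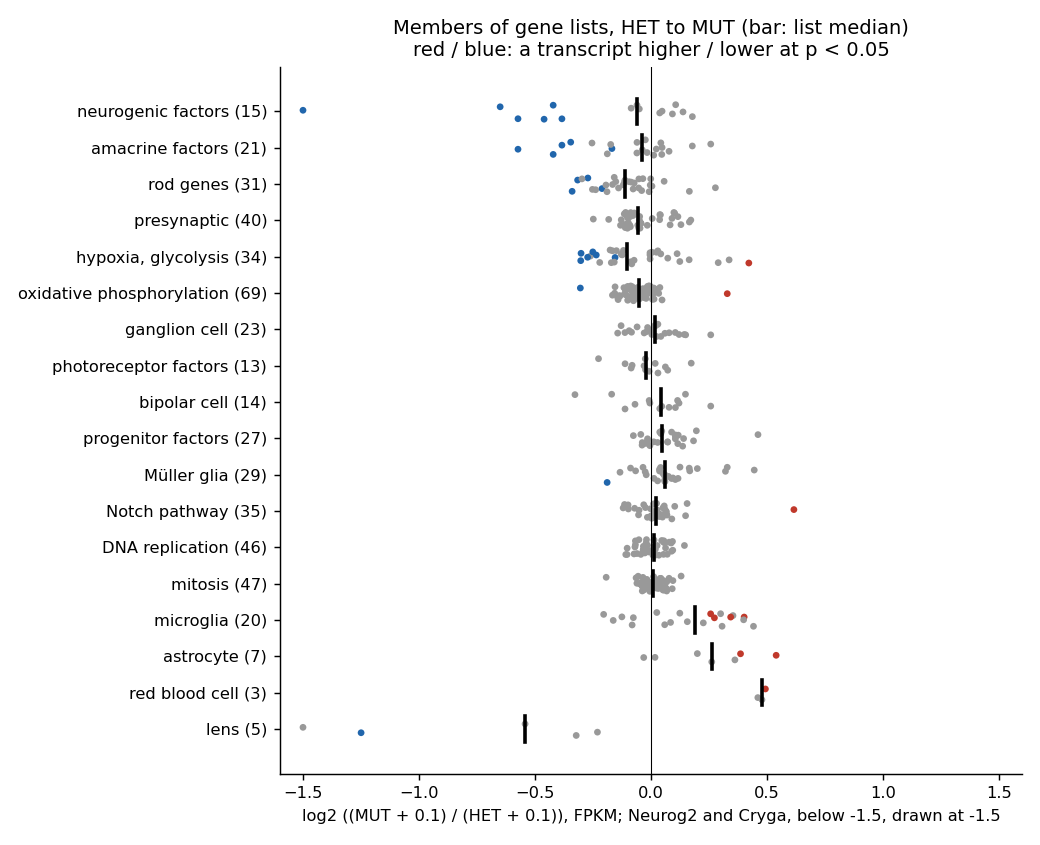
Log2 ratio of MUT to HET for each kept member of the gene lists, with the list median as a bar; Neurog2 and Cryga are drawn at the edge of the axis. Rod and hypoxia genes lie mostly left of 0, and microglia and astrocyte genes mostly right of it.

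Some hypoxia response and glycolysis genes were lower in MUT. Of 34 kept, 6 had a lower transcript at p under 0.05 and 1 a higher one, beside 1.3% and 0.903% of all genes kept, and 27 had neither. Of the 34, 67.6% lay below 0, beside 47.9% of all genes kept and 1242 of the 2179 genes at 50 FPKM or more, and the median was -0.10. The 6 lower ones were Pdk1, Bnip3, Gpi1, Tpi1, Pfkfb3 and Pfkl. Pdk1, the kinase that keeps pyruvate out of mitochondria, measured 29.9 FPKM in HET and 24.2 in MUT, with WT at 24.6. Bnip3, a hypoxia-induced mitophagy receptor, measured 91.6 and 77.8, with WT at 77.3. In both genes MUT was near WT and HET was the higher group.

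The glycolytic enzymes Gpi1 and Tpi1, both isomerases, measured 193 against 157 and 620 against 521 FPKM, with WT at 183 and 564, between the HET and MUT levels. Pfkl, a subunit of phosphofructokinase, measured 72.5 and 65.1, and Pfkfb3, which makes its activator, 11.6 and 9.60. In the authors' deposited table Gpi1 has p = 0.00235, Pdk1 0.00605, Bnip3 0.0054 and Tpi1 0.019. Epas1, the gene of the hypoxia-inducible factor HIF-2 alpha, differed in the other direction, at 8.48 in HET and 11.4 in MUT with WT at 8.67, and its p in that table is 5e-05. Hif1a and Vegfa, the related factor and the angiogenic ligand it induces, measured 80.0 against 81.6 and 82.9 against 85.4. Nuclear genes of oxidative phosphorylation were slightly lower too: 57 of 69 lay below 0 with a median of -0.054, against 1242 of 2179 genes below 0 and a median of -0.011 among all genes at 50 FPKM or more. Of those 69, Cox7b of complex IV was lower, at 311 and 252, and Ndufs5 of complex I higher, at 78.0 and 97.9.

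Markers of some cells other than retinal neurons differed between the groups. Of 20 microglia markers kept of 24, 15 lay above 0 and 4 were higher at p under 0.05, with none lower, a median of 0.19 and a summed level of 144 FPKM in HET and 162 in MUT. Over all genes kept, 0.903% were higher at such a p and 1.3% lower. C1qc and C1qa, complement subunits made by microglia, measured 12.9 against 17.1 and 18.0 against 21.8, with WT at 10.3 and 14.6. Mpeg1 and Fcrls were the other 2. Astrocyte markers had 6 of 7 above 0 and 2 higher, Pdgfra at 5.43 and 7.12 and Pax2 at 1.76 and 2.60. Cldn5, which seals the junctions between endothelial cells, measured 14 and 19.1, p = 0.00055 in the authors' deposited table, and was the 1 vascular marker of 8 at such a p. Of 3 blood markers kept, 1 was higher at p under 0.05, Hba-a1 at 8.44 and 11.9. Of 22 lens markers 5 were kept, of which Cryaa, at 1.12 and 0.411 with WT at 0.470, and Cryga, at 1.72 and 0.222, were kept through HET alone. Of 29 stroma and extracellular matrix genes 16 lay above 0 and 1 was lower at p under 0.05, with a median of 0.0067, and none of 6 pigment epithelium markers was at such a p, with a median of -0.12. The part of these cells in the other differences was not tested.

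Of 28 genes of newborn neurons kept, 2 were lower and 1 higher at p under 0.05, with a median of -0.058. For this list and those that follow, the shares over all genes kept were 1.3% lower and 0.903% higher. Sox11, a Sox factor of such neurons, measured 6.79 FPKM in HET and 5.80 in MUT, and its WT level was 9.31, so that the larger step lay between WT and HET. Gadd45g, a stress-response gene tied to cell cycle exit, was higher in MUT at 47.4 and 58.5 FPKM, whereas Gadd45a was lower at 23.8 and 18.3. Among 46 growth factor genes 3 were higher, among them Ptn, the secreted factor pleiotrophin, at 127 and 155. Among 58 axon guidance genes 2 were higher and 2 lower, with the netrin receptor Dcc at 6.70 and 8.66 and the Slit receptor Robo1 at 9.94 and 8.15. Wnt7b, a Wnt ligand, was lower at 4.14 and 3.12, the 1 of 34 Wnt pathway genes kept at such a p. Chrna3, an acetylcholine receptor subunit, was lower at 13.5 and 11.3, the 1 of 34 transmitter receptor genes kept at such a p. Crabp2 was higher at 18.4 and 23.7, opposite to Crabp1. Of the 50 lists, 17 had no member at p under 0.05, with medians from -0.12 to 0.13.

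The 12 protein-coding genes with the largest increases and a transcript at p under 0.05 had ratios from 0.61 to 1.10; Dlk1 was among those kept through MUT alone. They were Gm12666, Bcas1, Kcne2, Cadps2, Alpk1, Bdh2, Gm10320, Crhbp, Emp1, Asic4, Dlk1 and 0610040J01Rik. Most were sparse. Asic4, of the acid-sensing ion channel family, was the most abundant, at 12.4 FPKM in HET and 19.5 in MUT, and 2 of its transcripts were higher at p under 0.05, with p = 0.0001 and 0.0171 in the authors' deposited table. Crhbp, the binding protein of corticotropin-releasing hormone, measured 2.48 and 4.21, and Cadps2, which primes dense-core vesicles for release, 2.37 and 4.19. Bcas1, known from oligodendrocytes, measured 2.74 and 5.07.

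The 12 largest decreases by the same rule were Kdm5d, Neurog2, Hes2, Cryaa, Lars2, Akr1b8, Gm4737, Gm10073, Spp1, Prss56, Ppp1r14a and Nhlh1, with ratios from -5.77 to -0.65. Kdm5d and Cryaa were kept through HET alone. The ratio of Kdm5d depends on the amount added, at -2.68 with 1 FPKM and -8.92 with 0.01, and that of Cryaa was -0.58 with 1 FPKM. Lars2, the gene of the mitochondrial leucyl-tRNA synthetase, measured 349 FPKM in HET and 178 in MUT, with WT far above both at 748. Whether all reads assigned to Lars2 come from the synthetase mRNA was not tested. Spp1, the secreted glycoprotein osteopontin, measured 2.35 and 1.30. Prss56, a serine protease of Müller glia that acts on eye growth, measured 8.69 and 5.34, and Ppp1r14a, an inhibitor of myosin phosphatase, 14 and 8.72. Of the 12, Neurog2, Hes2 and Nhlh1 encode bHLH transcription factors.

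Some genes next to Neurog2 were higher in MUT. Within 0.5 Mb of its start, 6 other genes were kept, 5 above 0 and 2 of them higher at p under 0.05 and none lower, with a median ratio of 0.29. From 0.5 to 10 Mb the median over 58 genes was 0.028 with 1 higher, and over the 585 genes farther away on chromosome 3 it was 0.014, with 6 higher and 7 lower. Zgrf1, a helicase gene just upstream, measured 5.06 FPKM in HET and 6.79 in MUT, and Alpk1, an innate immune kinase gene downstream, 1.51 and 2.69. Bdh2, a ketone body dehydrogenase gene 7.65 Mb away, measured 6.49 and 11.3. WT values were 6.67, 2.34 and 8.92, above HET in all 3 genes. These 3 were named because a transcript was higher in MUT at p under 0.05, so that MUT lay above HET by the choice. The authors' deposited table gives p = 0.0006, 0.0018 and 0.0001 for MUT against HET. Local effects of the floxed chromosome and effects of losing Neurog2 cannot be told apart in these groups.

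**Figure D4:**
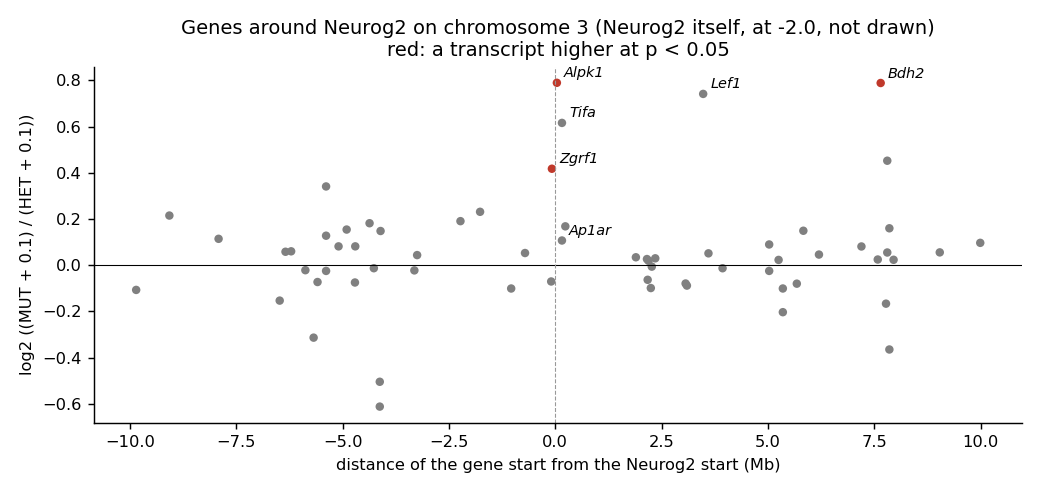
Log2 ratio of MUT to HET for genes kept within 10 Mb of Neurog2, by distance from its start in Mb, with genes that have a transcript higher at the authors' unadjusted p under 0.05 in red; Neurog2 itself, at -2.0, is not drawn. Zgrf1 and Alpk1 lie beside the Neurog2 start, and Bdh2 farther off, all above 0.

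Histone, small RNA and pseudogene transcripts took a large share of the largest differences. Classes were given only to genes kept. Of the 27 transcripts at the smallest p, 9 were of kept protein-coding genes outside the histone and ribosomal lists, 2 higher and 7 lower. A further 9 were of pseudogenes, 6 of small or structural RNAs, 1 of a histone gene and 1 of a long non-coding RNA gene. The 1 other, lower in MUT, belongs to the protein-coding gene Sema3g, which lay under 1 FPKM, was not kept and so had no class. Sema3g is named here after its values were seen. Of 46 histone genes kept, 17 had a lower transcript at p under 0.05 and 1 a higher one, beside 1.3% and 0.903% of all genes kept. The gene with the higher one was Hist1h4i, at 6.48 FPKM in HET and 9.49 in MUT. However, 10 of those 17 were kept through HET alone, so that the filter set their direction. The abundant histone genes differed little: H2afz measured 2042 FPKM in HET and 1980 in MUT. Over histone genes with a mean of at least 2 FPKM the median was -0.056. Small or structural RNA genes had a median of -0.84 over 162 genes. Rpph1, the RNA of RNase P, measured 54.0 and 4.89, with WT at 64.8, and the snoRNA gene Gm22620 0.641 and 3.86, with WT at 5.60. Reads can be split among near-identical copies, so levels of pseudogenes such as Rps3a2, at 58.4 and 0.933, are uncertain. By the same rule as for protein-coding genes, the 5 genes of other classes farthest above 0 were Gm22620, Xist, Gm6768, Gm9967 and Gm10093, and the 5 farthest below were Rps13-ps1, Rps3a2, Rps15a-ps8, Gm10167 and Rpph1. Gm22620 and Gm6768 were kept through MUT alone. Rps13-ps1, Rps3a2, Rps15a-ps8 and Gm10167 were kept through HET alone, so that the filter set the direction of all these. Among transcripts that themselves reached 1 FPKM in either group, 174 were under 200 bases. Their quartiles of ratio were -1.58 and 0.39, beside -0.057 and 0.078 for those of at least 4000 bases.

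**Figure D5:**
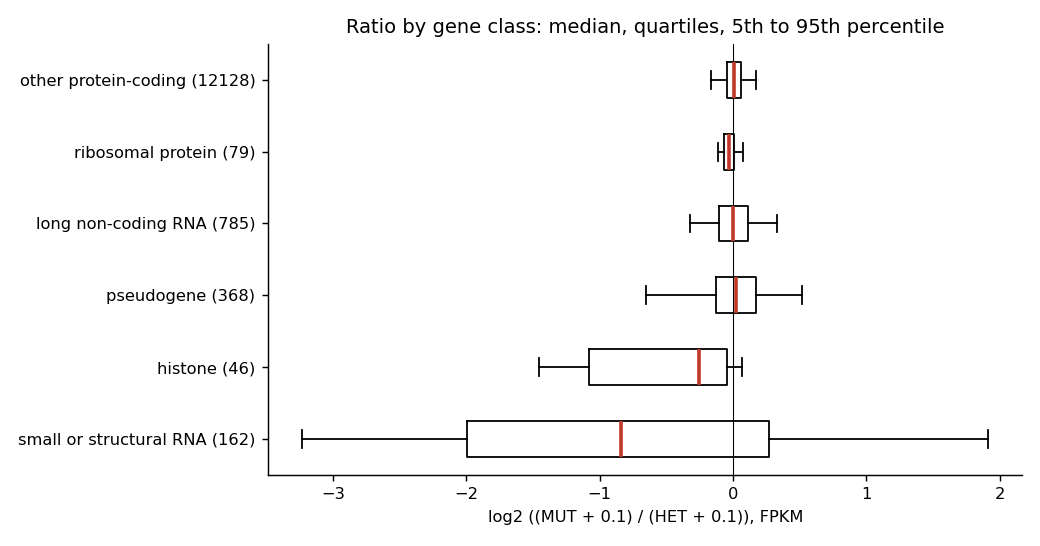
Log2 ratio of MUT to HET by gene class, with the number of genes in brackets, the median as a red line, the quartiles as a box and whiskers from the 5th to the 95th percentile. Small or structural RNAs spread widely with a median of -0.84, and protein-coding genes outside the histone and ribosomal lists are centred at 0.0048.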

How the data were processed

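RNA from whole retina was made into Illumina libraries at a core facility, per the labels' protocols. The submitters' processing notes name Bowtie2, Cufflinks and Cuffdiff and the mouse build mm10, without versions or settings. The authors deposited 1 Cuffdiff table per pair of groups, in which each transcript has an FPKM value for each group (pooled over its 5 samples), a log2 fold change, a test statistic (a score), a p-value and a q-value. Per the file headers the tables hold no column of a single sample; the p-values rest on the authors' replicates, which nothing in the labels says are separate animals, and their spread may be technical. The q-values are used as the authors gave them.

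From these, FPKM was summed per gene symbol (93 rows with symbols turned into dates were restored through the gene identifier), genes with at least 1 FPKM in either group were kept, and the log2 ratio was taken after adding 0.1 (pandas 2.3.3, numpy 2.4.6). The deposited log2 fold changes differed from those recomputed from the FPKM by at most 5.07e-05. Starts were shifted to count from 1. The steps were tested on simulated data. WT values come from separately normalized tables and are set side by side without a test.

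Named genes are Neurog2; the 12 protein-coding genes outside the histone and ribosomal lists farthest above 0 in ratio and the 12 farthest below, each having a transcript at p under 0.05 in that direction; the 5 farthest each way among other classes; list members at such a p; and up to 4 most abundant members of a list. The members, the 50 gene lists and the tests were chosen with earlier results of these data known. Lists are described by counts and medians beside those of all genes kept. A few genes are not reported here. Alternatives were other pseudocounts, filters, transcript choices, scalings and thresholds.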

Additional observations from a re-analysis of the deposited data

How the results depend on the processing

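Neurog2 kept its direction in every alternative run, with ratios from -2.01 to -1.91. No transcript passed q 0.05. At q 0.10, 27 passed, and a different set of 26 passed by the normal approximation. At p under 0.01, 61 transcripts were higher and 100 lower. Genes past 1.5-fold higher numbered 53 with 1 FPKM added, 58 at a mean of at least 2 FPKM, 198 without the filter on low values and 28 among protein-coding genes outside the histone and ribosomal lists; lower ones numbered 284 without the filter and 31 among those protein-coding genes. With the most abundant transcript alone the cone median turned to -0.019, Cdh10 to -0.15, Cdkn1b to 0.062 and Cryba4 to 0.40; the cause was not tested. The median of all genes moved by -0.0087 with the most abundant transcript alone, and by -0.0043 and -0.0023 with the ratios centred and taken through WT.

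No paired analysis was possible because the columns are pooled by group and carry no replicate, and for the same reason no sample was left out. The pooled values carry no depth, so differences of sparse genes have no counting interval.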

Other observations

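Of the imprinted Dlk1 to Dio3 region of chromosome 12, 4 RNAs were looked up after their values were seen. Dlk1, a Delta-like ligand made from the paternal allele and kept through MUT alone, measured 0.975 FPKM in HET and 1.55 in MUT, with WT at 1.25, and has p = 0.0294 in the authors' deposited table. The maternally expressed long non-coding RNAs Meg3, Rian and Mirg measured 133 against 159, 171 against 198 and 12.6 against 16.2, with WT at 156, 176 and 13.0, and none of them has a transcript at p under 0.05.

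In 5 genes, Bod1l, Cptp, Hlcs, Rin3 and Zfp94, transcripts differed in opposite directions at p under 0.05, so that the gene's sum hides them. Rin3, a Rab5 exchange factor gene, had a transcript at 0.491 FPKM in HET and 1.01 in MUT and another at 1.08 and 0.510, with p = 0.0248 and 0.0158 in the authors' deposited table, and a sum of 1.57 and 1.52. Bod1l, which protects replication forks, had a transcript at 3.63 and 1.68 and another at 4.60 and 6.5, with a sum of 8.24 and 8.18.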
